A study of Mus musculus with 2 samples.

Results

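Havcr2, Lag3 and Tigit encode the inhibitory receptors Tim-3, Lag-3 and Tigit. They were followed here with 6 partner genes (Cd226, Cd96, Cd160, Pvr, Nectin2 and Lgals9) through the cells of mouse melanomas. The 9 genes were chosen by symbol from all genes of the deposited matrices, and all 9 symbols were found. Their UMIs (unique molecular identifiers, 1 per captured RNA molecule) were counted in 12 cell classes, which were gated by markers of other genes.

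The samples were 1 library from OX40 agonist-treated mice and 1 library from control mice. Both came from ten-week-old female wild-type C57BL/6 mice that carried B16-F10 melanoma, a mouse tumour cell line, under the skin of the flank. Live CD45-positive cells negative for the dye DAPI were sorted and run on the 10x Genomics 3′ v3 platform. Dose and schedule of the agonist and the number of mice behind each library are not given in the sources used here.

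Tim-3 and Lag-3 accumulate on T cells that meet antigen for a long time, and galectin-9, the product of Lgals9, is one of several described ligands of Tim-3. Tigit and Cd96 restrain T and NK cells while Cd226 stimulates them. These receptors share the ligand CD155, which Pvr encodes on tumour and myeloid cells. Tigit and Cd226 also bind CD112, which Nectin2 encodes on such cells. Cd160 is a further receptor of NK and T cells, which binds the TNF receptor family member HVEM.

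With 1 library per group no difference between the groups could be tested. Every difference below compares 2 libraries, with no replicate check. Intervals are 95% and exact (Poisson for a level, conditional binomial for a ratio, Clopper-Pearson for a share), and they cover counting error only. The treated library held 8569 barcodes and 118059108 UMIs (median 7309 per barcode), the control library 7187 barcodes and 114026695 UMIs (median 8927). Filters kept 6986 treated and 5989 control cells, of which 894 and 851 stayed outside every class. The libraries shared 18 barcodes. Melanoma cells made up 8.65% of treated and 7.13% of control cells although the sort was for CD45, and a UMI of Ptprc, the CD45 gene, was seen in 11.1% of treated and 16.6% of control melanoma cells, against 98.1% of treated and 98.8% of control CD8 T cells. The median gene of a class lay within 0.05 of 0 on the log2 scale in all 12 classes.

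Levels are given as CPM, the UMIs of a gene per 1000000 UMIs of the summed class. These are 3′ counts, and a level is compared only for the same gene between classes or libraries. A gene counts as past 1.5-fold where (CPM + 10) of treated over control is at least 1.5 or at most its inverse, among genes at 10 CPM or more in either library. In the heat map of levels, each gene had its own set of classes, and the pattern over classes was alike in both libraries.

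**Figure D1:**
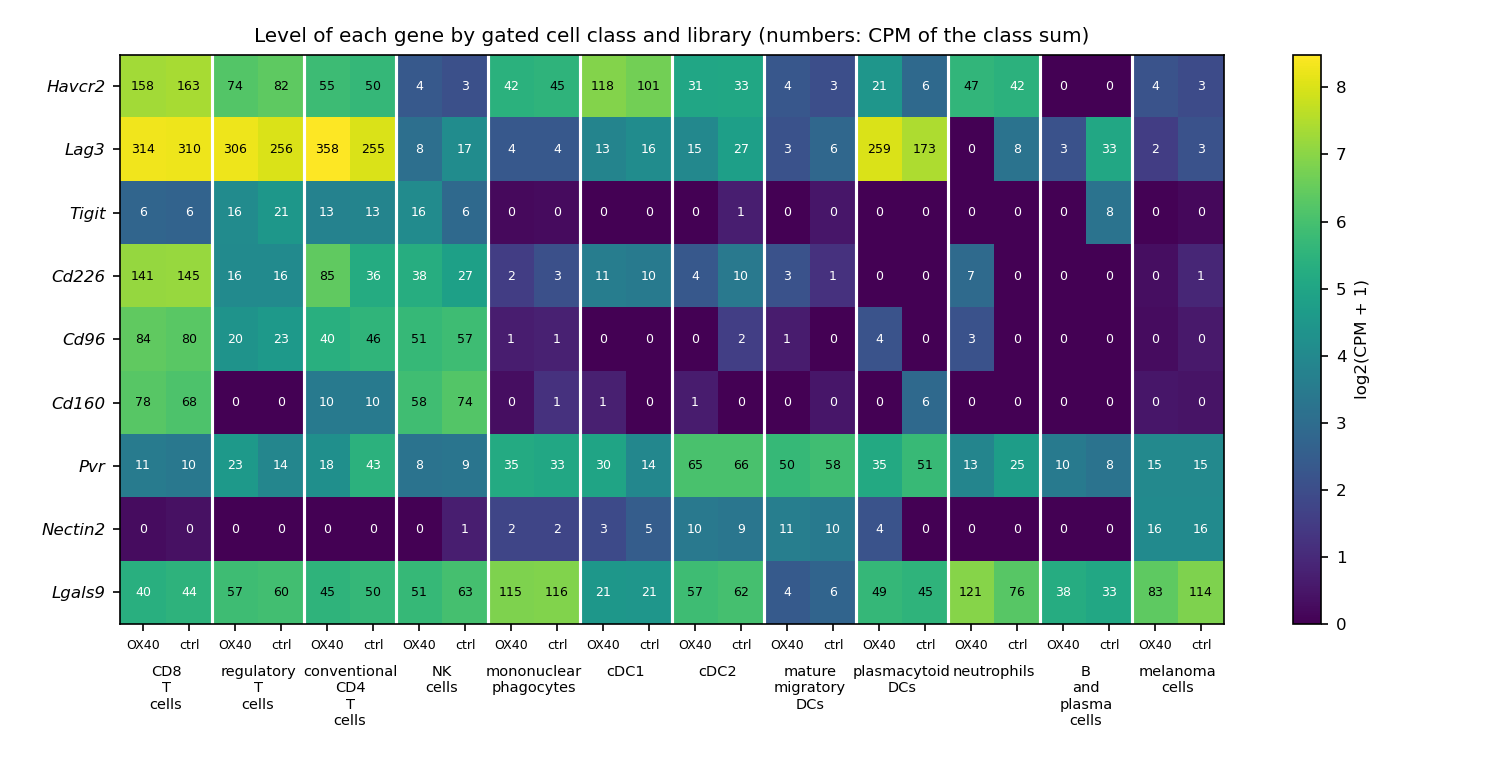
Level of the 9 genes (rows) in 12 gated classes (column pairs, OX40 agonist left, control right); colour is log2(CPM + 1) and the printed numbers are CPM. Havcr2 and Lag3 are high in T cells, Lag3 also in plasmacytoid DCs, Havcr2 also in cDC1, and Nectin2 is highest in melanoma cells.

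Havcr2 was highest in CD8 T cells, at 158 CPM (152 to 165) in the treated library and 163 CPM (158 to 169) in the control library. Type 1 conventional dendritic cells (cDC1), which cross-present antigen, came next with 118 CPM (101 to 137) in the treated and 101 CPM (84.2 to 120) in the control library. In the control library the cDC1 interval overlapped that of regulatory T cells, so the order of that pair is not fixed by counting error there.

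Regulatory T cells had 73.6 CPM of Havcr2 in the treated and 82.0 CPM in the control library, and mononuclear phagocytes 41.8 and 44.6 CPM in the same order of libraries. The gene was near the floor in NK cells, at 4.22 CPM in the treated and 3.20 CPM in the control library. Mature migratory DCs had 3.96 CPM in the treated and 3.07 CPM in the control library. Havcr2 was higher in cDC1 than in mature migratory DCs by more than counting error in both libraries. The CD3 genes (Cd3d, Cd3e and Cd3g) summed to 8.30 CPM in treated and 10.9 CPM in control cDC1. In mature migratory DCs they summed to 12.7 CPM in the treated and 24.1 CPM in the control library. The part of T cell RNA in the Havcr2 level of cDC1 was not tested.

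Among CD8 T cells a Havcr2 UMI was seen in 64.1% of treated cells (61.3 to 66.9, median depth 10043 UMIs) and 70.3% of control cells (67.9 to 72.5, median 12458). In mature migratory DCs, which were near the floor, it was seen in 2.05% of treated cells (median 7512 UMIs) and 2.95% of control cells (median 8636). After thinning to 1000 UMIs per cell, 13.9% of treated and 14.1% of control CD8 T cells kept a Havcr2 UMI, so at equal depth the shares overlapped.

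Lag3, a receptor related to CD4 that binds MHC class II, was high in all T cell classes. CD8 T cells had 314 CPM (305 to 323) in the treated and 310 CPM (303 to 317) in the control library. Regulatory T cells had 306 CPM (279 to 336) in the treated and 256 CPM (227 to 288) in the control library. Conventional CD4 T cells had 358 CPM (302 to 422) in the treated and 255 CPM (201 to 319) in the control library. In the treated library the intervals of neighbouring T cell classes overlapped, whereas in the control library CD8 T cells stood above regulatory T cells and overlapped conventional CD4 T cells. The ratio in conventional CD4 T cells, 1.4 (1.06 to 1.88), turned on the gate. Its log2 value was 0.47 here, 0.029 without the exclusion of cells with markers of other lineages and -0.58 with classes taken from clusters. The cluster taken as conventional CD4 T cells had 417 cells, among them 86 treated and 105 control cells gated as CD8 T cells.

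Outside T cells, plasmacytoid DCs, known as producers of type I interferon, had Lag3 at 259 CPM (203 to 325) in 41 treated cells and 173 CPM (114 to 251) in 17 control cells. The ratio was 1.5 (0.954 to 2.42), in a class where 17.9% of 8095 genes were past 1.5-fold as higher and 20.2% as lower, and 1 control cell held 37.0% of the control Lag3 UMIs. In 73.2% of treated and 52.9% of control plasmacytoid DCs a Lag3 UMI was present, against 2.91% of treated and 3.92% of control mononuclear phagocytes, whose median depths (8048 and 9278 UMIs) were near those of plasmacytoid DCs (6168 and 8824 UMIs). CD3 RNA in plasmacytoid DCs was 38.5 CPM in the treated and 19.2 CPM in the control library, and in mononuclear phagocytes, where Lag3 was 4.11 CPM (treated) and 4.06 CPM (control), it was 37.5 and 43.4 CPM in the same order of libraries. The part of T cell RNA in the Lag3 level of plasmacytoid DCs was not tested.

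Tigit was sparse, with 166 UMIs in all treated and 212 UMIs in all control cells. Regulatory T cells had 16.2 CPM (10.4 to 24.1, 24 UMIs) in the treated and 21.4 CPM (13.6 to 32.2, 23 UMIs) in the control library. CD8 T cells had less, with 5.78 CPM (4.61 to 7.16) in the treated and 5.56 CPM (4.63 to 6.61) in the control library. NK cells had 16 CPM (19 UMIs) in the treated and 6.39 CPM (10 UMIs) in the control library, a ratio of 2.51 (1.11 to 6.04) that rests on these few UMIs. Mononuclear phagocytes had 5 Tigit UMIs in each library, at 0.168 CPM (treated) and 0.175 CPM (control).

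The counterpart Cd226, which delivers the activating signal, was highest in CD8 T cells, at 141 CPM (135 to 147) in the treated and 145 CPM (140 to 150) in the control library. In CD8 T cells there were 24.3 UMIs of Cd226 per UMI of Tigit (19.6 to 30.6) in the treated and 26.0 (21.8 to 31.3) in the control library. In regulatory T cells the ratio was 0.958 (0.517 to 1.77) in the treated and 0.739 (0.371 to 1.45) in the control library. The 2 ratios are of UMIs, not of molecules per length, and only their difference between classes can be read. The balance of these RNAs leaned to Cd226 in CD8 T cells relative to regulatory T cells by more than counting error in both libraries. NK cells lay between, at 2.37 (1.36 to 4.29) in the treated and 4.30 (2.13 to 9.60) in the control library. In the treated library their interval overlapped that of regulatory T cells. Conventional CD4 T cells also lay between, at 6.8 (2.65 to 22.3) in the treated and 2.75 (0.815 to 11.8) in the control library, on few Tigit UMIs.

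Cd96 was highest in CD8 T cells, with 83.6 CPM in the treated and 79.6 CPM in the control library, then in NK cells, with 50.7 CPM in the treated and 56.9 CPM in the control library. Cd160 was highest in CD8 T and NK cells. CD8 T cells had 77.7 CPM in the treated and 68.0 CPM in the control library. NK cells had 58.3 CPM of Cd160 in the treated and 73.5 CPM in the control library. No Cd160 UMI was seen in 244 treated and 147 control regulatory T cells. The upper limit of the interval was 2.49 CPM in the treated and 3.44 CPM in the control class. Conventional CD4 T cells had 4 Cd160 UMIs in the treated and 3 in the control library.

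Among the ligands, Pvr was highest in cDC2 and mature migratory DCs, while cDC1 had 29.8 CPM in the treated and 14.1 CPM in the control library. Type 2 conventional dendritic cells (cDC2), which present antigen to CD4 T cells, had 64.7 CPM (53.2 to 77.9) in the treated and 65.7 CPM (53.5 to 79.8) in the control library. Mature migratory DCs had 50.4 CPM in the treated and 57.8 CPM in the control library, and their interval overlapped that of cDC2 in both. Of the 9 genes, only Pvr and Nectin2 reached 10 CPM in mature migratory DCs, and neither was past 1.5-fold. In that class 0.503% of 6561 genes were past it as higher and 0.701% as lower. Mononuclear phagocytes had 35.1 CPM of Pvr in the treated and 33.4 CPM in the control library. Melanoma cells had 14.8 CPM of Pvr in the treated and 14.9 CPM in the control library.

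Nectin2 had another distribution. Melanoma cells had 15.7 CPM (14.5 to 17.0) in the treated and 15.8 CPM (14.4 to 17.2) in the control library and held 79.7% of treated and 78.2% of control Nectin2 UMIs. Mature migratory DCs had 11.3 CPM in the treated and 10.1 CPM in the control library, and cDC2 had 9.91 CPM in the treated and 9.10 CPM in the control library. The interval of mature migratory DCs overlapped that of melanoma cells in both libraries. Mononuclear phagocytes, which carried Pvr, had 2.42 CPM of Nectin2 in each library. No Nectin2 UMI was seen in regulatory T cells of either library, and CD8 T cells had 3 UMIs in the treated and 7 in the control library.

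Lgals9 and Pvr each had a UMI in all 12 classes of both libraries. Mononuclear phagocytes had Lgals9 at 115 CPM (111 to 119) in the treated and 116 CPM (112 to 120) in the control library. Mature migratory DCs were the exception, with 4.24 CPM in the treated and 5.70 CPM in the control library, below cDC2 at 57.1 CPM (treated) and 62.4 CPM (control). In the few B and plasma cells (43 treated, 15 control), where 21.9% of 7222 genes were past 1.5-fold as higher and 24.3% as lower, no member reached 20 UMIs.

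**Figure D2:**
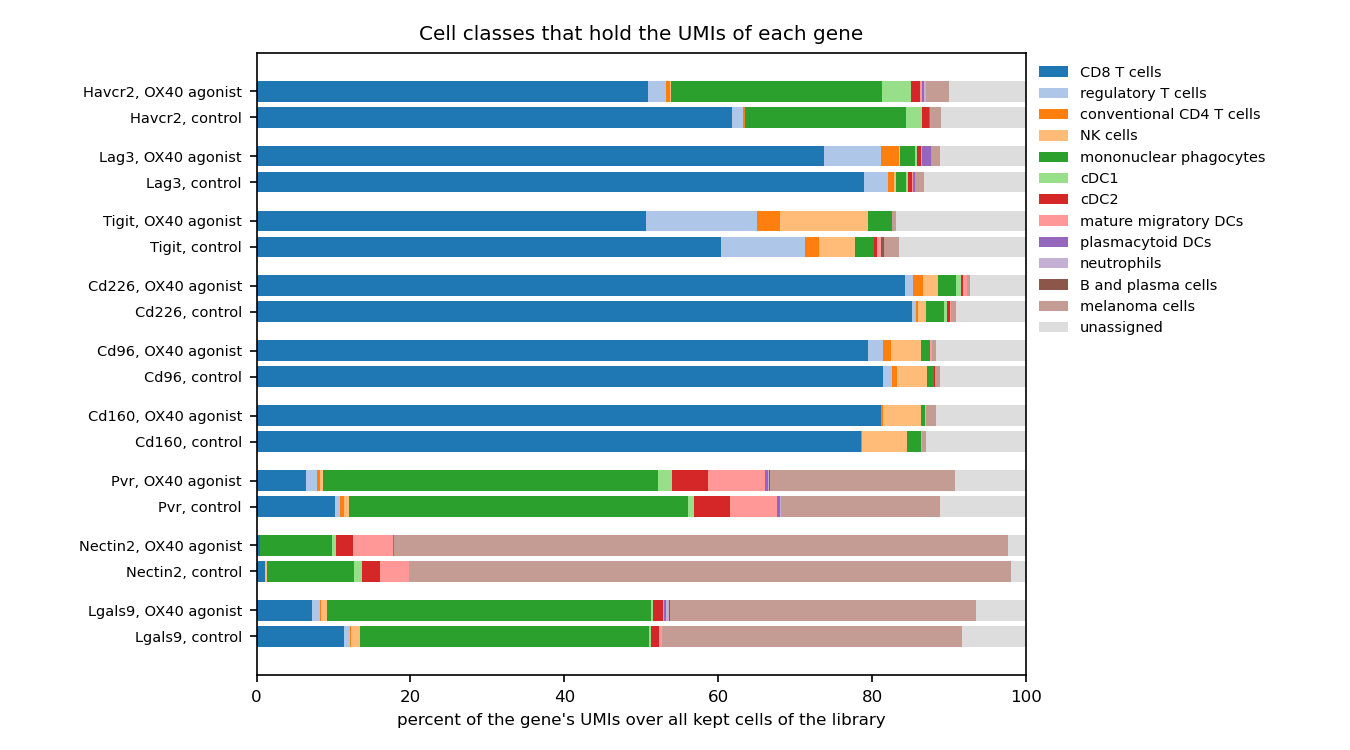
Share of the UMIs of each gene (x axis, percent of its UMIs over all kept cells) that each class holds, with the OX40 agonist library above the control library for each gene. CD8 T cells hold 50.9% of Havcr2 and 73.8% of Lag3 UMIs in the treated library against 61.7% and 79.0% in the control library, and melanoma cells hold most Nectin2 UMIs.

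Over all kept cells, Havcr2, Lag3 and Cd226 were lower in the treated library, while within CD8 T cells their ratio intervals held 1. Havcr2 was at 45.1 CPM in all treated and 61.3 CPM in all control cells, a ratio of 0.735 (0.707 to 0.764), against a ratio of 0.969 (0.920 to 1.02) within CD8 T cells. Lag3 was at 61.5 CPM in all treated and 90.8 CPM in all control cells, a ratio of 0.678 (0.656 to 0.700), against 1.01 (0.977 to 1.05) within CD8 T cells. Cd226 had a ratio of 0.615 over all cells and 0.973 within CD8 T cells. Cd160 had a ratio of 0.691 over all cells and 1.14 within CD8 T cells. CD8 T cells were 17.0% of treated cells (16.1 to 17.9) and 25.4% of control cells (24.3 to 26.6), and that share moved with the whole-library levels. None of the 9 genes passed 1.5-fold over all kept cells, where 0.235% of 8072 genes were past it as higher and 0.694% as lower.

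Within CD8 T cells, no receptor passed 1.5-fold either way. Tigit, below 10 CPM there, could not count as past the fold. Of the 6970 genes measured in CD8 T cells, 0.043% were past it as higher and 0.143% as lower. The log2 ratios, on the log2(CPM + 10) scale, were -0.043 for Havcr2, 0.019 for Lag3, 0.021 for Tigit, -0.036 for Cd226 and 0.064 for Cd96, beside a median of -0.030 over all measured genes. Cd160 had the ratio farthest from 1, at 1.14 (1.06 to 1.23), or 0.17 on the log2 scale.

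None of the other measured genes of these pathways was past the fold in CD8 T cells. Of the other inhibitory receptors, 0 of 9 measured were past the fold in CD8 T cells, with a median log2 ratio of -0.11, and 2 had a ratio above and 7 below 1. Of those above, Pdcd1, the PD-1 gene, was at 414 CPM in the treated and 386 CPM in the control library. Of the regulators of exhaustion and effector fate, 0 of 13 were past the fold, and 6 had a ratio above and 7 below 1. Tox, with a ratio above 1, was at 165 CPM in the treated and 152 CPM in the control library. Of the other ligands and receptors of these axes, 0 of 5 were past it, with a median of -0.09. None of 12 signalling and shedding partners, which include Bag6 that binds the Tim-3 tail and the sheddases Adam10 and Adam17, was past it.

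Havcr2, Lag3 and Cd160 varied more between CD8 T cell clusters than between libraries over the whole class. Clusters were built without the 9 genes, and cluster levels are descriptions with no test. Ratios named within clusters, here and in phagocytes, were picked from many pairs of gene and cluster, with no share of all genes beside them. Cluster 0 was led by granzymes Gzmd, Gzme and Gzmf, cluster 8 by the cycle genes Rrm2 and Mki67, cluster 9 by Pmepa1, Cxcr3 and Gzmk, cluster 1 by the chemokines Xcl1 and Ccl1, and cluster 10 by Klf2 and Tcf7, genes of naive and memory T cells.

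Havcr2 was highest in cluster 0, with 231 CPM (218 to 246) in the treated and 236 CPM (226 to 246) in the control library. It was lowest in cluster 10, with 19 CPM (8.21 to 37.5) in the treated and 19.1 CPM (9.53 to 34.2) in the control library. The spread from cluster 10 to cluster 0 was 12.2-fold in the treated and 12.3-fold in the control library.

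Lag3 followed another order. It was highest in cluster 1, with 568 CPM (521 to 617) in the treated and 584 CPM (540 to 632) in the control library, and cluster 0 had 381 CPM in the treated and 369 CPM in the control library. Cluster 10 had 16.6 CPM (7 UMIs) in the treated and 50.3 CPM (29 UMIs) in the control library, a ratio of 0.330 (0.122 to 0.771).

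Cd160 peaked in the same cluster as Lag3, where it had 225 CPM (196 to 257) in the treated and 243 CPM (214 to 274) in the control library. In cluster 0, the peak of Havcr2, Cd160 was at its lowest, with 48.5 CPM in the treated and 49.8 CPM in the control library. Havcr2 in cluster 1 was 93.2 CPM in the treated and 93.7 CPM in the control library. Cd160 was thus lowest where Havcr2 was highest, in each library alike.

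Tigit, with 0 to 52 UMIs per cluster and library, had overlapping intervals between clusters 1 and 9. Cd226 ranged from 59.4 CPM (cluster 10) to 162 CPM (cluster 1) in the treated and from 55.5 to 175 CPM in the same clusters of the control library. Cd96 had a narrower fold range than Cd226, from 66.5 CPM (cluster 10) to 97.4 CPM (cluster 1) in the treated and from 43.4 to 105 CPM in the control library.

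**Figure D3:**
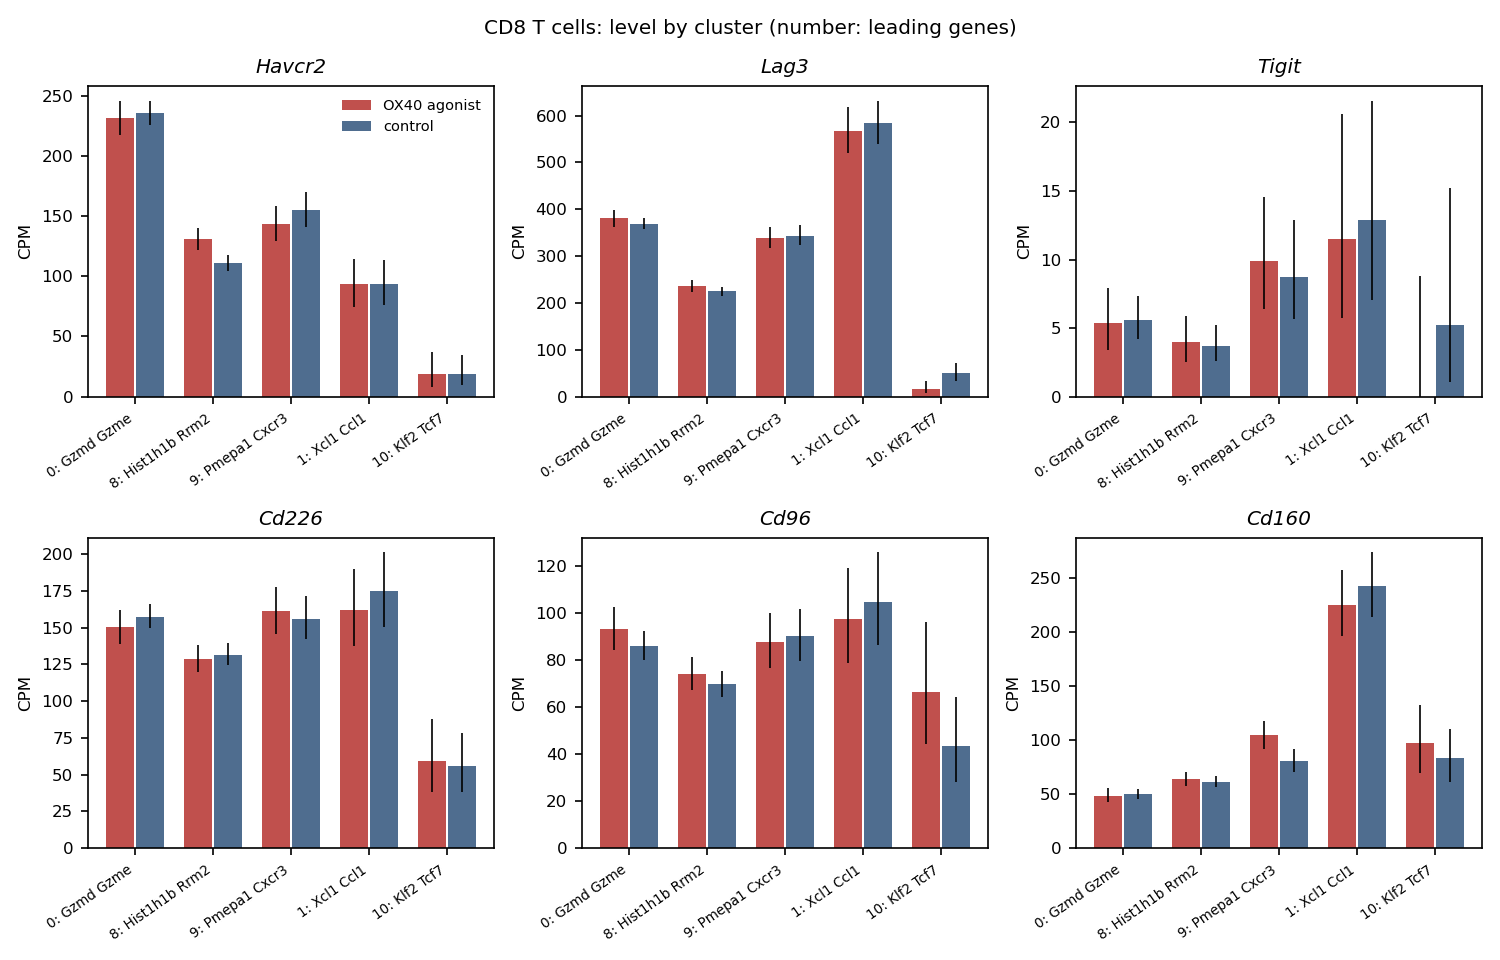
Level (CPM, y axes differ) of 6 receptor genes in 5 clusters of CD8 T cells, with the OX40 agonist library left of the control library and 95% Poisson intervals as bars. Havcr2 is highest in the Gzmd cluster, Lag3 and Cd160 in the Xcl1 cluster, and Lag3 in the Klf2 cluster is 16.6 CPM in the treated and 50.3 CPM in the control library.

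The cluster make-up was not the same in both libraries. Cluster 0 held 23.7% of treated and 34.0% of control CD8 T cells, and cluster 9 held 31.9% of treated and 24.6% of control CD8 T cells. Within cluster 8, Havcr2 was 131 CPM in the treated and 111 CPM in the control library, a ratio of 1.18 (1.08 to 1.30). Within cluster 9, Cd160 was 104 CPM in the treated and 80.6 CPM in the control library, a ratio of 1.29 (1.08 to 1.55). In the other clusters, the ratio intervals of both genes held 1.

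A Tcf7 UMI, which marks memory-like and precursor cells, gave a like contrast. CD8 T cells with one had Havcr2 at 54.6 CPM in 79 treated cells and 68.4 CPM in 101 control cells, whereas those without had 164 CPM in 1109 treated cells and 168 CPM in 1422 control cells. Cells with a Tcf7 UMI were shallower, with a median of 5693 UMIs (treated) and 6520 UMIs (control), against 10501 and 13060 UMIs without, and so the split also follows depth. Cd96 followed that order in the control library and not in the treated library: cells with a Tcf7 UMI had 92.9 CPM in the treated and 59.0 CPM in the control library, a ratio of 1.57 (1.08 to 2.29), and those without had 83.2 CPM in the treated and 80.5 CPM in the control library.

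Lag3 UMIs were seen more often in CD8 T cells with a Havcr2 UMI than in those without at equal depth. With cells thinned to 2000 UMIs, Lag3 was seen in 51.6% (45.6 to 57.6) of treated cells with a Havcr2 UMI and in 41.0% (37.8 to 44.3) of those without. In the control library these shares were 51.7% (46.6 to 56.8) with and 40.8% (37.9 to 43.7) without. At 1000 UMIs the shares were 41.2% with and 22.0% without in the treated library, and 35% with and 27.0% without in the control library, where the intervals overlapped. Unthinned, Lag3 was seen in 90.8% of treated and 92.3% of control cells with a Havcr2 UMI, and in 61.7% of treated and 66.0% of control cells without. Of the 3 genes Havcr2, Lag3 and Tigit, all were seen together in 57 of 1188 treated (4.80%) and 82 of 1523 control (5.38%) CD8 T cells, unthinned.

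Myeloid states differed for Lgals9 and Havcr2. In mononuclear phagocytes Lgals9 was highest in cluster 14, led by the interferon-stimulated genes Ifit3, Rsad2 and Isg15, with 331 CPM (286 to 381) in 101 treated cells and 343 CPM (300 to 390) in 86 control cells. Among the clusters plotted, the other 7 ranged from 79.5 to 131 CPM in the treated and from 76.3 to 134 CPM in the control library. No interval of theirs reached that of cluster 14.

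Havcr2 peaked elsewhere, in cluster 18, led by Ace, Adgre4 and Treml4, genes of patrolling monocytes. It had 91.9 CPM (68.6 to 121) in 112 treated cells and 146 CPM (120 to 176) in 120 control cells, a ratio of 0.629 (0.444 to 0.883). In the treated library its interval overlapped those of clusters 3, 14 and 15, and in the control library it overlapped no other cluster plotted. Cluster 3, led by Ly6i, Ass1 and Il1b, had 74.2 CPM in the treated and 60.6 CPM in the control library, a ratio of 1.22 (1.05 to 1.42). Cluster 6, led by Gas6 and Igf1, was low in Havcr2, with 25.0 CPM in the treated and 25.6 CPM in the control library. That cluster held 18.7% of treated and 5.86% of control phagocytes. Over all phagocytes Havcr2 was at a ratio of 0.937 (0.866 to 1.01) and Lgals9 at 0.990 (0.943 to 1.04). A further small cluster, 16, was led by the pigment genes Pmel and Dct at a median depth of 1903 UMIs (treated) and 1535 UMIs (control), and it was left unnamed and out of the plot together with cluster 2.

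**Figure D4:**
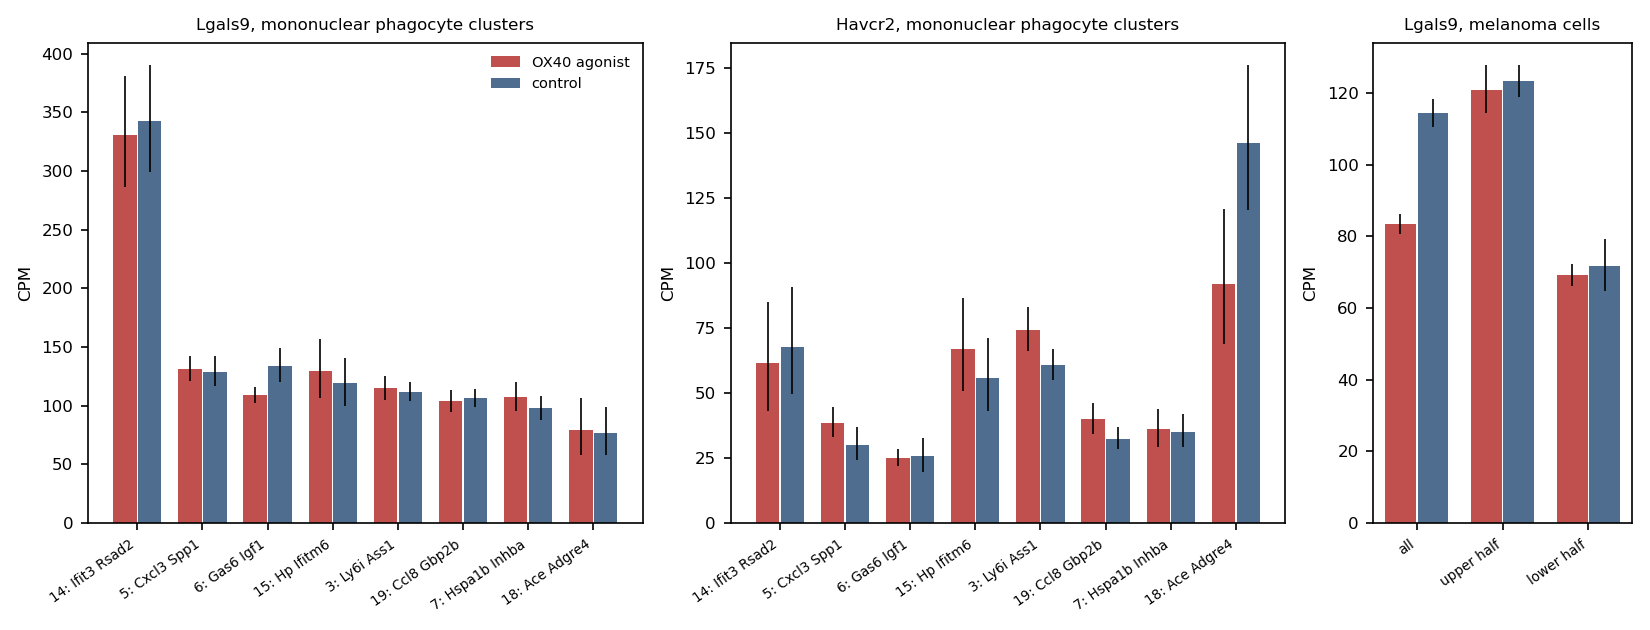
Level (CPM, 95% Poisson intervals) of Lgals9 (left) and Havcr2 (middle) in 8 clusters of mononuclear phagocytes, and of Lgals9 in melanoma cells (right; all cells, and those above and below the median of 6 interferon-gamma-induced genes), with the OX40 agonist library left of the control library. Lgals9 reaches 331 and 343 CPM in the Ifit3 cluster, and in melanoma cells the libraries differ over all cells but overlap on each side of the median. The split was chosen after the values were seen and also follows the library.

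Of the pairs with at least 1000 UMIs in each library, the ratio farthest from 1 was that of Lgals9 in melanoma cells. It had 83.4 CPM (80.6 to 86.3, 3228 UMIs) in 604 treated cells and 114 CPM (111 to 118, 3439 UMIs) in 427 control cells, a ratio of 0.730 (0.695 to 0.766) and a log2 ratio of -0.41. It was under 1.5-fold, which 1.24% of 7830 genes passed as lower and 0.0128% as higher in that class. Pvr had a ratio of 0.994 (0.877 to 1.13) and Nectin2 of 0.999 (0.884 to 1.13). With cells thinned to 1000 UMIs the log2 ratios were -0.31 for Lgals9, -0.30 for Pvr and -0.37 for Nectin2. At that depth Pvr was seen in only 6 treated and 6 control melanoma cells, and Nectin2 in 11 treated and 10 control cells. The thinned ratios of these genes thus rest on few UMIs. Of the other ligands and receptors of these axes, 1 of 5 measured in melanoma cells was past the fold, Lgals3 (galectin-3, a Lag-3 ligand), with 20.9 CPM in the treated and 43.0 CPM in the control library.

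RNA of other cells moved with this difference. The melanoma gate did not exclude cells with phagocyte markers. The 8 phagocyte markers summed to 23.7 CPM in treated and 43.1 CPM in control melanoma cells, which is 0.263% of their level in treated and 0.471% in control phagocytes, and 0 of the 8 were at 0. Lgals3 was at 4854 CPM in treated and 4813 CPM in control phagocytes, and the part of phagocyte RNA in the Lgals3 and Lgals9 differences was not tested.

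Genes induced by interferon-gamma also moved with it. Igtp had 45.1 CPM in treated and 152 CPM in control melanoma cells, and Psmb9, an immunoproteasome subunit, had 34.4 CPM in treated and 111 CPM in control cells. The melanoma cells were split at the median (398 CPM) of the summed level of Gbp2, Igtp, Psmb8, Psmb9, H2-D1 and Tap1, a split chosen after the values were seen, with 62 cells between 0.8 times the median and the median divided by 0.8.

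Above the median Lgals9 was at 121 CPM (114 to 128) in 165 treated cells and 123 CPM (119 to 128) in 351 control cells. Below the median it was at 69.2 CPM (66.1 to 72.3) in 439 treated cells and 71.7 CPM (64.6 to 79.4) in 76 control cells. On each side the libraries overlapped, with ratios of 0.981 (0.919 to 1.05) above and 0.964 (0.863 to 1.08) below the median. The sides differed within each library. All genes used for the split were themselves lower in the treated library, so the split also followed the library. The gene with the highest level among them was H2-D1, at 259 CPM in treated and 689 CPM in control melanoma cells. A cause of the Lgals9 difference was not tested. For Pvr the sides overlapped: treated cells had 16.3 CPM above and 14.2 CPM below the median, and control cells 15.1 CPM above and 14 CPM below.

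The Lgals9 promoter is shown because Lgals9 was highest in phagocyte cluster 14 and moved with interferon-gamma-induced genes in melanoma cells. Other phagocyte clusters with interferon-stimulated genes among their leading genes did not stand apart. In cluster 6 (Ifit1 and Ifit2 among them) Lgals9 was 109 CPM in the treated and 134 CPM in the control library. It was 104 CPM in the treated and 106 CPM in the control library in cluster 19 (Gbp2b, Iigp1). The sequence is the RefSeq window from 250 bases before to 50 bases after the start, on build GRCm38.p6, chr11:78984875-78985174, minus strand, 5′ to 3′. Capitals mark matches to the core of the interferon-stimulated response element (GAAA, any 2 bases, GAAA, or in reverse TTTC, any 2 bases, TTTC):
Lgals9 promoter: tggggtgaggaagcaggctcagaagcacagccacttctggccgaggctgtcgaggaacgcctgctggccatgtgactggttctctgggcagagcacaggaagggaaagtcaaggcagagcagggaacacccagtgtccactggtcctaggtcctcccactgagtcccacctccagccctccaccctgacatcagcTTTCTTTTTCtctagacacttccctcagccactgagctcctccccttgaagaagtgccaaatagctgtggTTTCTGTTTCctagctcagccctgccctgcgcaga

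The window held 2 matches, TTTCTTTTTC from 55 bases before the start and TTTCTGTTTC from position 16 after it, both as the reverse of the core. Of 32851 promoters of 300 bases, 3.44% held at least 1 match and 0.225% held 2 or more. The core of the interferon-gamma-activated site (TTC, any 3 bases, GAA, which is its own reverse) was not in this window, and 8.30% of promoters held it. The promoter table had entries for 6 of the 9 genes. The windows of Havcr2, Tigit, Cd96, Cd160 and Nectin2 held no match to the first core, and 1 match to the second was in the Cd96 window and 1 in 1 of the 2 Cd160 windows. A match is a string of letters and was not tested as a binding site.

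Of the 108 pairs of a gene and a class, 40 reached 10 CPM and 20 UMIs in a library. The median size of their log2 ratios was 0.14, and 3 were past 1.5-fold higher and 1 past 1.5-fold lower.

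Cd226 in conventional CD4 T cells had 85.1 CPM (34 UMIs, 77 cells) in the treated and 36.4 CPM (11 UMIs, 44 cells) in the control library, a ratio of 2.34 (1.16 to 5.11). In this small class 14.6% of 7869 genes were past the fold as higher and 14.8% as lower. Its leading genes included Ctla4, Ikzf2 and Tnfrsf4, which regulatory T cells also express, and the class can hold such cells in which Foxp3 was not captured. With classes taken from clusters the log2 ratio was 0.067, against 1.03 here. The cluster so named had 417 cells, among them 86 treated and 105 control cells gated as CD8 T cells.

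Pvr in cDC1 had 29.8 CPM (43 UMIs) in the treated and 14.1 CPM (18 UMIs) in the control library, a ratio of 2.11 (1.19 to 3.89), in a class where 2.32% of 6953 genes were past the fold as higher and 4.14% as lower. Without the exclusion of cells with markers of other lineages the log2 ratio of Pvr was 0.46, against 0.72 here. Phagocyte markers in cDC1 summed to 37.4 CPM in the treated and 99.3 CPM in the control library. The part of RNA from other cells in the Pvr value was not tested.

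Lgals9 in neutrophils had 121 CPM (36 UMIs) in the treated and 76.5 CPM (9 UMIs) in the control library, a ratio of 1.58 (0.748 to 3.74), where 23.3% of 6896 genes were past the fold as higher and 22.1% as lower. Phagocyte markers in that class summed to 3164 CPM in the treated and 756 CPM in the control library, and their part in the Lgals9 value was not tested. The neutrophil gate did not exclude cells with these markers.

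Lag3 in NK cells had 7.60 CPM (9 UMIs) in the treated and 16.6 CPM (26 UMIs) in the control library, a ratio of 0.457 (0.189 to 1.01), where 1.32% of 7186 genes were past the fold as higher and 2.42% as lower. CD3 RNA in NK cells was 31.2 CPM in the treated and 44.7 CPM in the control library, so it moved the same way as Lag3, and its part was not tested.

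Among the pairs under the fold, Lag3 in regulatory T cells had a ratio of 1.20 (1.03 to 1.39), in a class where 2.57% of 7595 genes were past the fold as higher and 2.79% as lower. This ratio turned on the gate: without the exclusion of other lineages the log2 ratio was -0.037, against 0.25 here. In the same class Irf4 was at 25.0 CPM in the treated and 12.1 CPM in the control library and Nr4a2 at 74.9 CPM in the treated and 45.7 CPM in the control library, and these 2 of 12 measured regulators were past the fold as higher, 0 as lower. None of 5 other ligands and receptors, 8 other inhibitory receptors and 12 signalling and shedding partners was past it there.

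Lag3 in cDC2 had 14.6 CPM in the treated and 26.7 CPM in the control library, a ratio of 0.547 (0.319 to 0.921), in a class where 1.03% of 6811 genes were past the fold as higher and 2.38% as lower. The CD3 genes there summed to 14 CPM in the treated and 38.4 CPM in the control library, and 1 control cell held 34.1% of the control Lag3 UMIs. Without the top cell of each library the log2 ratio was -0.35, and with cells thinned to 1000 UMIs it turned to 0.54, against -0.58 here, and the part of T cell RNA was not tested.

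**Figure D5:**
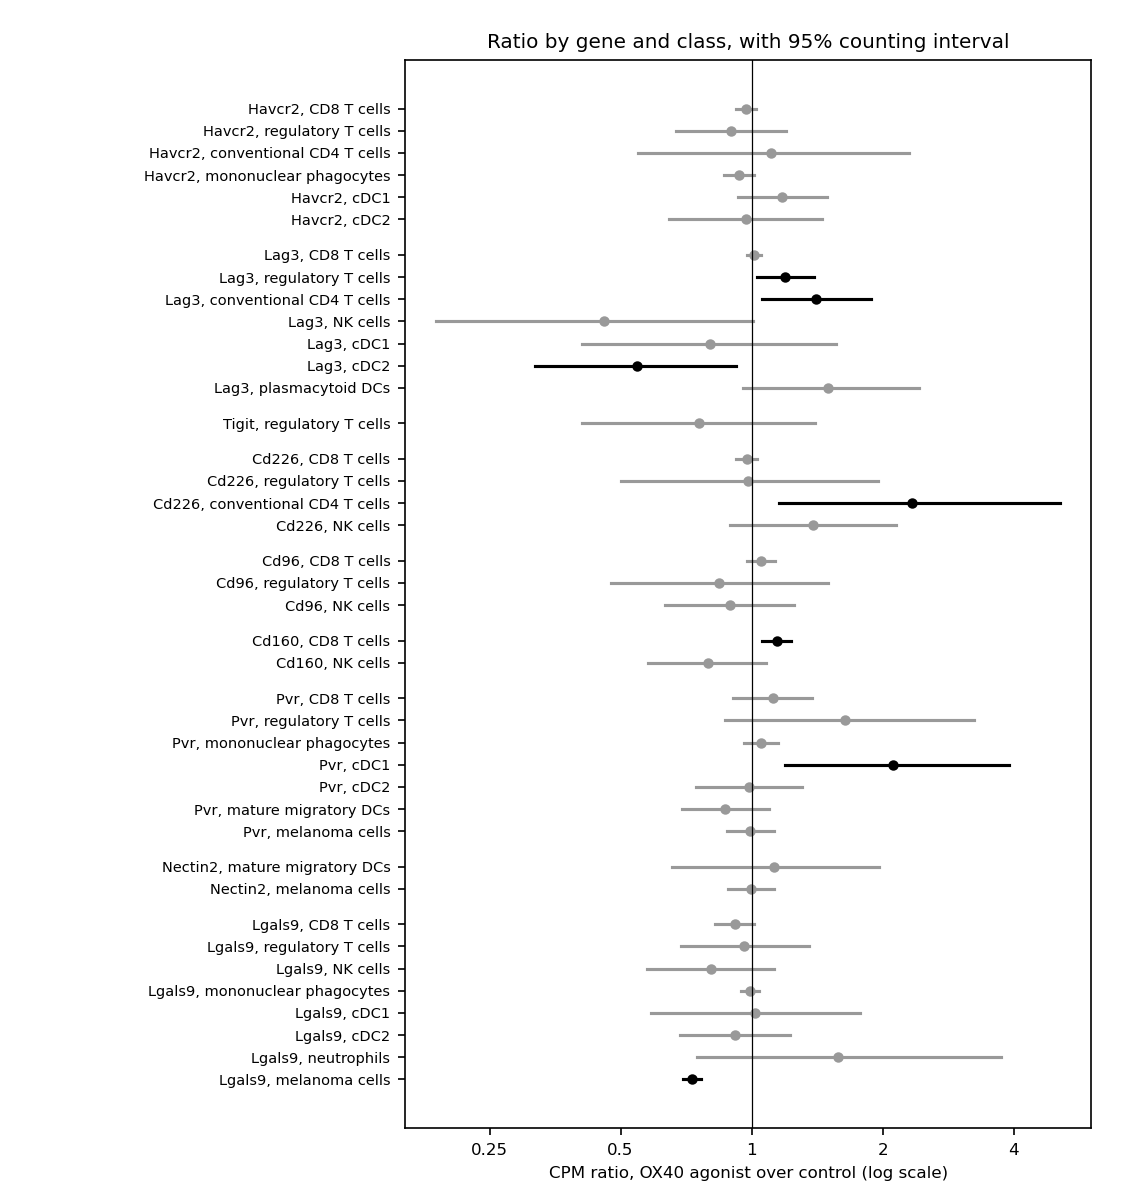
CPM ratio of the OX40 agonist library over the control library (x axis, log scale) for the 40 pairs of gene and class that reached 10 CPM and 20 UMIs, with 95% intervals for counting error. Black marks the intervals that leave out 1. Most ratios lie near 1, and Lgals9 in melanoma cells has the narrowest of the black intervals on the low side.

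In mononuclear phagocytes, 0.637% of 7067 genes were past the fold as higher and 0.849% as lower. Of 5 measured other ligands and receptors 1 was past it, as lower: Fgl2, a gene of the fibrinogen-like family to which the Lag-3 ligand Fgl1 also belongs, had 171 CPM in the treated and 269 CPM in the control library. Ligand Fgl1 itself had no UMI in phagocytes of either library and 12 UMIs in treated and 8 UMIs in control melanoma cells.

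Genes most alike to the 3 checkpoint receptors were taken by Pearson correlation of log2(CPM + 10) over 16 points (8 classes of at least 50 cells in each of the 2 libraries), among 4911 genes. The points share libraries and the classes were gated, so the values only describe. Havcr2 was most like Erp44 (0.89), Gng2 (0.87) and Entpd1, the CD39 gene (0.86), followed by Trpv2 (0.84) and Pstpip1 (0.83). Lag3 was most like Klk8, Gstp3, Ppp1ca, Cd3d and Cd3g (0.96 to 0.98). Tigit was most like Gata3, Cysltr2, Klrg1, Ipcef1 and Slc50a1 (0.96 to 0.97).

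In the mm10 annotation, Havcr2 lies at chr11:46454935-46481255 and Lgals9 at chr11:78962974-78984946. Pvr (chr7:19903578-19921160) and Nectin2 (chr7:19716644-19750483) share a chromosome, as do Tigit (chr16:43648867-43664146) and Cd96 (chr16:46035657-46120251), while Lag3 lies at chr6:124904361-124911705. All are protein-coding. Cd160, Pvr and Nectin2 overlap other genes on the opposite strand.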

How the data were processed

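Sorted tumour cells were profiled by 10x Genomics 3′ v3 chemistry in 1 OX40 agonist and 1 control library. The authors deposited UMI counts per gene and barcode as whole numbers, made with Cell Ranger on mm10 per the submitters' processing notes (version 3.1.0 per the file headers). Barcodes with at least 500 UMIs, 200 genes and at most 10% mitochondrial UMIs were kept. Barcodes with the highest Scrublet scores (Scanpy 1.11.5) were removed at 0.8% per 1000 barcodes, 514 treated and 365 control. The program's own cutoff called 1 treated and 0 control doublets and was not used.

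Cells were gated by marker UMIs per 10000 with exclusion of other lineages. Cells with phagocyte markers were not excluded from the melanoma and neutrophil classes. For cDC2 the gate only asked for more cDC2 than phagocyte marker UMIs. Counts were summed per class and given as CPM. Ratios are on log2(CPM + 10). Genes at 10 CPM in either library counted as measured. Clusters used 30 principal components of 2000 variable genes without the 9 genes, 15 neighbours and Leiden resolution 1.5. Scripts were tested on simulated data. The genes named were all 9 members wherever they reached 10 CPM and 20 UMIs, the 5 genes most alike to each of 3 receptors, and members of the pathway lists past the fold; other values were added for context. Members and lists were chosen with earlier results of these data known.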

Additional observations from a re-analysis of the deposited data

Results flagged for a closer look

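Lag3 differed between the libraries in opposite directions by cell class, with counting intervals that leave out no difference on both sides. Its log2 ratio, OX40 agonist over control, was 0.25 in regulatory T cells and 0.47 in conventional CD4 T cells, but -0.58 in cDC2. Each direction turned under another processing choice, to -0.037 in regulatory T cells without the exclusion of other lineages, to -0.58 in conventional CD4 T cells with classes from clusters and to 0.54 in cDC2 with thinned cells. The difference between these ratios was not tested. The cluster taken as conventional CD4 T cells also held CD8 T cells. The CD3 genes summed to 14 CPM in treated and 38.4 CPM in control cDC2, and their part in the cDC2 value was not tested.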

How the results depend on the processing

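No paired analysis was possible because the labels carry no replicate numbers and each group has 1 library. Of 152 recomputed values of the 10 main ratios, 143 stayed within the counting interval and 9 moved beyond it. None of the 9 is counted as reversed, a term kept for ratios whose main interval leaves out 1, although some of them changed sign. Tigit in CD8 T cells and Nectin2 in mononuclear phagocytes, also main ratios, lay below 10 CPM. The added 10 CPM draws their log2 ratios toward 0, so their staying within the interval says little. Thinning to 1000 UMIs, which leaves few UMIs per gene, gave log2 ratios of -0.23 for Lag3 and -0.13 for Cd96 in CD8 T cells, 0.21 for Lgals9 in mononuclear phagocytes, and -0.31 for Lgals9 and -0.30 for Pvr in melanoma cells. Cd96 in CD8 T cells was -0.045 as a mean over cells, and Lgals9 in melanoma cells -0.30 with a pseudocount of 50 CPM. On either side of the median of interferon-gamma-induced genes, a split added after seeing the data, Lgals9 in melanoma cells was -0.025 (above) and -0.046 (below).

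Of the 32 other pairs, 456 of 480 values stayed within the interval, 21 moved and 3 reversed. Lag3 reversed to -0.037 in regulatory T cells without the exclusion of other lineages, to -0.58 in conventional CD4 T cells with classes from clusters, where the cluster so named was the Klf2 and Tcf7 cluster that also held CD8 T cells, and to 0.54 in cDC2 after thinning. The cause was not tested. Leaving out the barcodes shared by both libraries, also added after seeing the data, moved no value beyond its interval. At 2-fold, 0% of genes in CD8 T cells were past the fold as higher and 0.0287% as lower, and in melanoma cells 0% as higher and 0.358% as lower. With 1 library per group, variation between mice cannot be told apart from treatment, and Tigit is limited by its few UMIs.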
